A study of Mus musculus with 4 samples.

Results

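Sterol and fatty acid synthesis was followed through 27 genes, chosen by name from the 23235 gene rows of the deposited tables: 17 enzymes of the cholesterol pathway, 6 genes of fatty acid synthesis, and 4 genes that regulate these pathways or carry sterols. The rule was pathway membership, set with earlier results of these data known. Bulk RNA came from acute myeloid leukaemia carrying NRASG12V and Mll-AF9, grown for 20 days in SCID/Beige mice, which have immune defects, to a white cell count above 100000 per microlitre. One library had NRASG12V on, and 3 had it off after 48 h, 72 h and 96 h of doxycycline, given as an injection at time 0 and then in drinking water. All 4 libraries share the NRASG12V/Mll-AF9 genotype and the SCID/Beige host. Each group was 1 library. No library combined doxycycline with NRASG12V still on, so effects of the switch, of the drug and of elapsed time cannot be told apart. Not stated in the labels are the tissue harvested, the promoter that drives either oncogene, whether mice were pooled, or whether each library was a separate mouse.

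Cholesterol is built from acetyl-CoA by way of mevalonate, farnesyl diphosphate, squalene and lanosterol, and fatty acids are built from the same acetyl-CoA. SREBP transcription factors, encoded by Srebf1 and Srebf2, sit in the endoplasmic reticulum and are released to the nucleus when sterols run low. There they activate most genes of both branches, while Insig proteins hold them back when sterols are plentiful. Leukaemia cells, like other dividing cells, need these products for membranes, and Ras proteins need the farnesyl group made from farnesyl diphosphate to attach to membranes.

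Promoter sequences show what these genes share beside the pathway. RefSeq windows of GRCm38.p6, from 250 bases before to 50 bases after the annotated start, were found for 21 of the 27 genes. The motifs searched are known to work with SREBPs, and both strands were read: TCACNCCAC, part of the sterol response element; CCAAT, bound by NF-Y; and GGGCGG, the GC box bound by Sp1. No match of 1 motif can be a match of another. The first occurred in 1 of the 21 genes, Hmgcs1, and in 1.24% of all 32851 windows. CCAAT occurred in 18 of the 21, beside 37.4% of all windows and 37.8% of the windows of the genes tested below. GGGCGG occurred in 17 of the 21, beside 35.7% and 61.9%; a gene with several windows had more chances to match. Each stretch below is 120 bases long, 5′ to 3′ on the gene's strand, with the motif letters in capitals on either strand. It was placed, within the 250 bases before the start, where it holds most motif letters, or for Hmgcs1 around the sterol response element match. That of Insig1 runs from 229 to 110 bases before the start. The stretches show the sterol response element match and Nsdhl, whose level changed least. The others are the 3 single-window genes with the largest mean change on the log2(FPKM + 1) scale that hold a motif before the start.
Hmgcs1 (chr13:119690184-119690303, plus strand): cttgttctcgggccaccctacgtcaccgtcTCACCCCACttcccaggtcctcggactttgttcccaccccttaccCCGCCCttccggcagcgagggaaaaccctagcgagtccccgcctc
Insig1 (chr5:28071183-28071302, plus strand): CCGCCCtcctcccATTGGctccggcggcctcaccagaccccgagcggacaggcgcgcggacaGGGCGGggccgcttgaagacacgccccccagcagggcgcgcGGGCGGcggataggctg
Hsd17b7 (chr1:169969313-169969432, minus strand): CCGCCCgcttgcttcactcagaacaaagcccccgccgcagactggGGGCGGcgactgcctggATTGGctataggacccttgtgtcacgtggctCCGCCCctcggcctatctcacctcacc
Srebf2 (chr15:82147134-82147253, plus strand): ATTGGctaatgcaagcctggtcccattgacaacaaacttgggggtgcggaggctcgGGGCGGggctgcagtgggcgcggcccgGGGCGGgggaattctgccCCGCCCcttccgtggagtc
Nsdhl (chrX:72918401-72918520, plus strand): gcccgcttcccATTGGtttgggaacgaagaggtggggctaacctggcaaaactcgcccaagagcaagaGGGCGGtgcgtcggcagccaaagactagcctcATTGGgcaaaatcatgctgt
In these stretches, which were placed by their motif letters, Insig1, Hsd17b7 and Srebf2 each hold 1 CCAAT and 3 GGGCGG matches. Nsdhl, at the same level on and off, holds 2 and 1 there. The whole windows hold 1 and 3 for Insig1 and 3 and 3 for Hsd17b7. They hold 1 and 5 for Srebf2 and 4 and 1 for Nsdhl. Of the genes that fell in the test below, 8 of the 9 with a window held CCAAT and 7 held GGGCGG; of the 12 others with a window, 10 held each. A match is a description of the letters and not a binding site.

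Levels are FPKM, fragments scaled to transcript length and library total, on a scale common to the 4 libraries. A change is log2((off FPKM + 1)/(on FPKM + 1)) within the deposited table of that time, so changes of weakly expressed genes come out too small. The mean of the 3 off times is given with its SD (n = 3 off libraries). Over the 3 times, the off libraries were tested together against the on library with limma, with Benjamini-Hochberg adjustment over 11958 genes and a threshold of 0.05. "Fell" and "rose" are used only of genes that passed it. The on library has no replicate, and the spread behind each p-value starts from that among the 3 off libraries, which differ in time. limma then draws each gene's spread toward a trend over all genes tested. Close agreement of the off libraries for 1 gene thus does not by itself give a low p-value. The off libraries may or may not be different mice. Differences between times and sample-to-sample spread, which may be technical, are thus mixed in each p-value. FPKM hold no counts. From the steps of low values, the off libraries held 1.15, 1.04 and 1.19 times as many reads per unit of FPKM as the on library at 48 h, 72 h and 96 h, and total depth is unknown.

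The libraries differed in more than lipid genes. Mouse Nras was at 23.6 FPKM on and between 16.5 and 18.8 FPKM off (limma, Benjamini-Hochberg adjusted p = 0.128), and reads of a human transgene need not map to it. Among 12 erythroid markers, all rose, and their summed level was 1407 FPKM on and 5294, 8012 and 11075 FPKM at 48 h, 72 h and 96 h. Of 12 genes shared by leukocytes, 5 fell and 0 rose (0 higher also at an unadjusted limma p under 0.05), with sums of 3953 FPKM on and 2817, 2275 and 1724 FPKM off. Primary granule genes fell in 5 of 6 cases, proliferation genes rose in 1 of 8, and monocyte and macrophage genes rose in 1 and fell in 1 of 10. Endothelial and stromal genes rose in 3 and fell in 1 of 7 tested. Tek, among these rises, reached 1 FPKM only in off libraries. For comparison, 15.2% of all genes tested fell and 11.8% rose. The monocyte and macrophage shares (10% each way) and the proliferation share (12.5% rose) were close to or under these. By level, 5 of the 8 proliferation genes were above the on library in all 3 off libraries, beside 33.4% of all genes tested, and 0 were below it in all 3. Their summed level was 915 FPKM on and 1020, 1315 and 1422 FPKM at 48 h, 72 h and 96 h. Of the 10 monocyte and macrophage genes, 4 were above and 3 below the on library in all 3. The 8 lymphocyte markers summed to 3.36 FPKM on and at most 7.83 FPKM off, and of 3 tested 2 rose (Ncr1 and Cd8a, which reached 1 FPKM only in off libraries) and 0 fell (0 also at an unadjusted limma p under 0.05). Of the cell types best known for lipid synthesis, the hepatocyte markers summed to at most 0.997 FPKM in any library, with Alb listed at 0 in all 4, and the adipocyte markers Adipoq and Lep were listed at 0 in all 4. Fabp4 and Lipe, which cells other than adipocytes also express, made up most of the adipocyte list's sum of 37.2 FPKM on and 13.3 to 17.7 FPKM off, and both fell. The part of these shifts in the lipid gene results was not tested, and in bulk RNA fewer cells of a type and less RNA per cell cannot be told apart.

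After NRASG12V was switched off, 10 of the 27 genes fell, 1 rose and 15 did not pass. The rise, of Scd1, could be tested only because its off libraries reached 1 FPKM, and Hmgcs1 could not be tested. Among the 10 that fell were the sterol enzymes Fdps, Mvk, Hsd17b7, Cyp51 and Sc5d. The others were Acly, Fasn and Elovl6 in fatty acid synthesis, and Insig1 and Srebf2 among the regulators. Of all 11958 genes tested, 15.2% fell and 11.8% rose. The median mean change was -0.36 for 16 sterol enzymes, -0.46 for 6 fatty acid genes and -0.63 for 4 regulators and carriers, beside -0.08 for all genes tested and -0.83 for the leukocyte genes. The on library exceeded each of the 3 off libraries for 17 of the 27 genes and was under each of them for 4; among all genes tested, these shares were 45.7% and 33.4%. Hsd17b7, Insig1, Fdps and Elovl6 passed under each of 9 other settings. Without the 72 h library these were the only 4 falls left of the 10, or 15.4% of the 26 tested beside 10.2% of all genes. With the libraries' medians set equal 6 were left (these 4 with Acly and Srebf2), or 23.1% beside 11.8% of all genes, and 13.3% of all genes then rose.

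**Figure D1:**
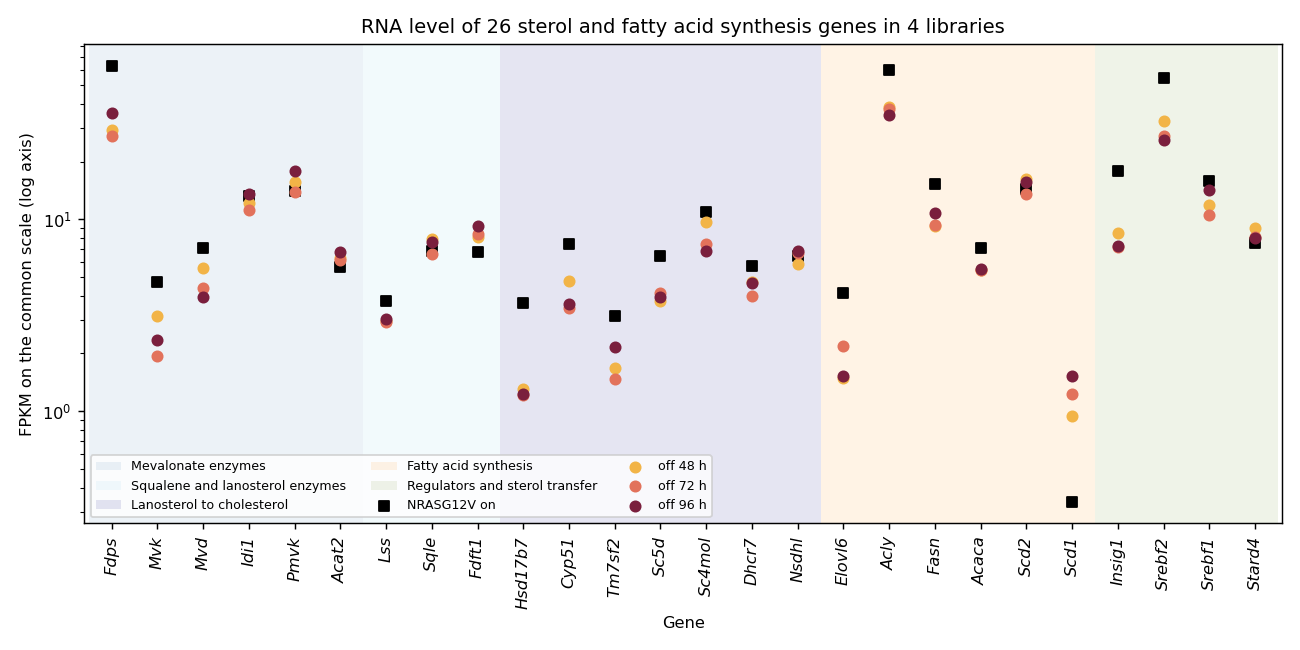
RNA level in FPKM on a log axis (vertical) of the 26 genes that reached 1 FPKM in at least 1 library (horizontal, grouped by role); the black square is the library with NRASG12V on and the circles are the off libraries at 48 h, 72 h and 96 h. Fdps, Acly and Srebf2 are the most abundant in the on library, at 63.1, 59.7 and 54.2 FPKM, and Scd1 is the only gene under 1 FPKM there.

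Of the mevalonate enzymes, which make the isoprenoid building blocks, 2 of 6 tested fell, beside 15.2% of all genes tested. None rose (0 higher also at an unadjusted limma p under 0.05). Fdps, which makes farnesyl diphosphate, was at 63.1 FPKM in the on library and, in order of time, at 29.3, 27.2 and 35.8 FPKM in the off libraries. Every off library was well below the on level, with the lowest at 72 h. The mean change was -1.02 ± 0.20 (limma, Benjamini-Hochberg adjusted p = 0.0117; 0.00355 to 0.0371 when 1 off library was left out). Its exons share 1124 bases with the same-strand gene model Gm43738 in GENCODE M21, so reads may be divided between them in other annotations. Mvk, the kinase that phosphorylates mevalonate, was at 4.71 FPKM on and at 3.14, 1.93 and 2.36 FPKM off. All 3 off levels were lower and the 48 h library was nearest to the on library. Mvk had a mean log2 change of -0.73 ± 0.25 and fell (limma, Benjamini-Hochberg adjusted p = 0.0401; 0.0949 without the 72 h library). Mvd, the decarboxylase that acts after Pmvk, went from 7.08 FPKM to 5.61, 4.37 and 3.94 FPKM. Each later library was lower, but the change of -0.53 ± 0.21 did not pass (adjusted p = 0.0961; 0.0241 without the 48 h library, 0.249 without 72 h and 0.119 without 96 h).

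The other mevalonate enzymes lay close to the on level. Acat2, the thiolase that joins acetyl-CoA units, was at 5.64 FPKM on and 6.30, 6.16 and 6.79 FPKM off. Pmvk, the kinase after Mvk, was at 14.1 FPKM on and 15.6, 13.9 and 17.9 FPKM off. Idi1, the isomerase that prepares the substrates of Fdps, was at 13.2 FPKM on and 12.1, 11.2 and 13.6 FPKM off. For Pmvk and Idi1 the on level lay within the range of the off libraries. Hmgcs1, the synthase that acts after the thiolase, is listed at 0 in every deposited column, as are 5743 genes in all. A listed 0 may be an estimate that failed, so no statement on its RNA is possible; its promoter is the one with the sterol response element match printed above.

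None of the 3 enzymes from farnesyl diphosphate to lanosterol passed the limma test, and 0 had an unadjusted p under 0.05. Fdft1, squalene synthase, was at 6.79 FPKM on and at 8.08, 8.42 and 9.19 FPKM off, above the on library in all 3. Its mean change was 0.29 ± 0.08 (limma, Benjamini-Hochberg adjusted p = 0.257). Fdft1 shares 774 exonic bases with Ctsb on the opposite strand, and with an unknown strand setting their reads may not be separable there; Ctsb was at 167 FPKM on and 186 to 194 FPKM off. Sqle, squalene epoxidase, was at 6.83 FPKM on and 7.90, 6.58 and 7.66 FPKM off. Lss, which closes the rings to lanosterol, was at 3.77 FPKM on and 2.94, 2.93 and 3.01 FPKM off. The off libraries of Lss agreed closely and all lay under the on library. The change of -0.27 ± 0.02 did not pass (adjusted p = 0.262), with a limma standard error of 0.17 after its spread was drawn toward the trend. The 3 neighbours Fdps, Fdft1 and Sqle thus had mean changes of -1.02, 0.29 and 0.10.

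From lanosterol to cholesterol, 3 of 7 enzymes fell, beside 15.2% of all genes tested, and 0 rose (0 higher also at an unadjusted limma p under 0.05). In every off library 6 of 7 were below the on library, which held for 45.7% of all genes tested. Hsd17b7, the reductase that works in the removal of the methyl groups, was at 3.67 FPKM on and at 1.31, 1.21 and 1.23 FPKM off. The 3 off values were nearly equal, at 34.2% of the on level on average. Its mean change of -1.05 ± 0.03 had the lowest adjusted p of the 27 genes (limma, Benjamini-Hochberg adjusted p = 0.00371). Cyp51, the lanosterol demethylase, was at 7.44 FPKM on and 4.75, 3.43 and 3.62 FPKM off. All 3 off libraries were lower, with 48 h the highest of them, and Cyp51 fell by 0.78 ± 0.20 (adjusted p = 0.0258; 0.0701 without the 72 h library). Sc5d, the desaturase that acts late in the pathway, was at 6.40 FPKM on and 3.75, 4.12 and 3.94 FPKM off. It fell by 0.59 ± 0.06, with no overlap between on and off (adjusted p = 0.0394; 0.125 without the 72 h library).

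The other enzymes of this stretch did not pass. Tm7sf2, a sterol reductase, went from 3.14 FPKM to 1.68, 1.47 and 2.17 FPKM (mean change -0.59 ± 0.18; limma, Benjamini-Hochberg adjusted p = 0.0547; 0.0230 without the 96 h library, 0.149 without 72 h and 0.0650 without 48 h). It shares 532 exonic bases with Vps51 on the same strand. Sc4mol, now named Msmo1, the oxygenase that starts removal of the methyl groups, went from 11.0 FPKM to 9.74, 7.46 and 6.86 FPKM (adjusted p = 0.182; 0.0409 without the 48 h library, 0.435 without 72 h and 0.237 without 96 h). The 48 h library lay near the on level and the later ones lower. Dhcr7, the last reductase before cholesterol, was at 5.71 FPKM on and 3.98 to 4.74 FPKM off. Nsdhl, the dehydrogenase that works beside Hsd17b7, was at 6.45 FPKM on and 5.87, 6.65 and 6.84 FPKM off, a mean change of -0.0016 ± 0.10. Nsdhl and Hsd17b7, partners in the same demethylation steps, therefore had off levels of 100% and 34.2% of the on level.

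**Figure D2:**
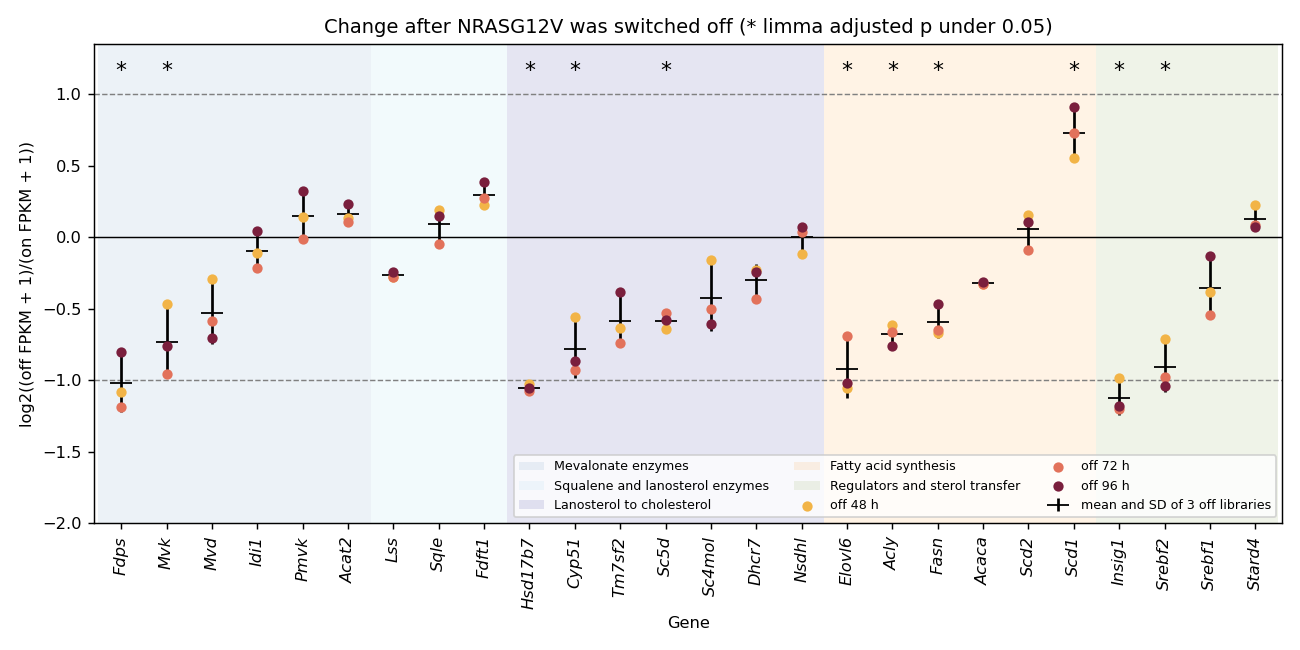
Change of each gene on the log2(FPKM + 1) scale (vertical) at 48 h, 72 h and 96 h (coloured circles), with the mean and SD of the 3 off libraries in black; stars mark genes that passed the limma test and dashed lines a 2-fold change. All 3 circles of Hsd17b7 lie below -1, those of Fdft1, Acat2, Stard4 and Scd1 lie above 0, and no gene is 2-fold higher on this scale.

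In fatty acid synthesis, 3 of 6 genes fell and 1 rose, beside 15.2% and 11.8% of all genes tested. Acly, which makes cytosolic acetyl-CoA from citrate for both branches, was at 59.7 FPKM on and at 38.7, 37.4 and 34.9 FPKM off. The off libraries lay together and well under the on library, and Acly fell by 0.68 ± 0.07 (limma, Benjamini-Hochberg adjusted p = 0.0314; 0.161 without the 72 h library). Fasn, the synthase that builds palmitate, was at 15.3 FPKM on and 9.28, 9.40 and 10.8 FPKM off. It fell by 0.60 ± 0.11, with every off library lower (adjusted p = 0.0463; 0.207 without the 72 h library). Acaca, the carboxylase that supplies Fasn with malonyl-CoA, was at 7.09 FPKM on and at 5.45, 5.45 and 5.51 FPKM off. Its change of -0.32 ± 0.01 did not pass (adjusted p = 0.196). The off values hardly differed from one another, but the limma standard error, with the spread drawn toward the trend, was 0.17. Elovl6, which lengthens the palmitate that Fasn makes, was at 4.14 FPKM on and 1.49, 2.19 and 1.52 FPKM off. All 3 off libraries were lower, 72 h being the highest of them, and Elovl6 fell by 0.92 ± 0.20 (adjusted p = 0.0126).

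The stearoyl-CoA desaturases, which add the first double bond, did not follow the falls. Scd2 was at 14.4 FPKM on and at 16.1, 13.5 and 15.6 FPKM off, so the on level lay inside the off range. Scd1 was at 0.338 FPKM on and at 0.945, 1.23 and 1.53 FPKM off, higher in each later library, and rose by 0.73 ± 0.18 (limma, Benjamini-Hochberg adjusted p = 0.0260). Scd1 reached 1 FPKM only in off libraries, so it was tested only because it was high there. With no filter on low values its fitted change was again 0.73 and the adjusted p was 0.0569, and 5 of the 10 falls lost their calls under the same setting. Its level remained below that of Scd2 in every library. The 2 genes are close relatives and reads may be divided between them.

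Of the regulators, Insig1 and Srebf2 fell and none rose (0 higher also at an unadjusted limma p under 0.05). Insig1, which keeps SREBPs in the endoplasmic reticulum and is itself a target of SREBPs, was at 17.8 FPKM on and at 8.49, 7.16 and 7.25 FPKM off. The off libraries averaged 43.0% of the on level, a higher share than the 34.2% of Hsd17b7 and the 41.8% of Elovl6. Its mean change of -1.12 ± 0.12 was the largest fall among the 27 genes on the log2(FPKM + 1) scale, at percentile 4.04 of all genes tested (limma, Benjamini-Hochberg adjusted p = 0.00508; at most 0.00509 with 1 off library left out). Srebf2, the SREBP that mainly drives the sterol branch, was at 54.2 FPKM on and 32.7, 27.1 and 25.9 FPKM off. It was lower in each later library, and fell by 0.91 ± 0.17 (adjusted p = 0.0152; 0.0533 without the 72 h library). Srebf1, the SREBP that mainly drives fatty acid synthesis, was at 15.8 FPKM on and 11.9, 10.5 and 14.3 FPKM off. All 3 off libraries lay lower, with 96 h near the on level, and its change of -0.35 ± 0.21 did not pass (adjusted p = 0.237). FPKM per gene do not separate the Srebf1 isoforms. Stard4, which carries cholesterol between membranes, was at 7.54 FPKM on and 8.98, 8.06 and 7.98 FPKM off (adjusted p = 0.628).

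At single times, where 1 library stands on each side and no test is possible, few of the genes passed a 2-fold change. At 48 h, Fdps, Hsd17b7 and Elovl6 were at least 2-fold lower, 3 of 25 members reaching 1 FPKM in either library, beside 4.85% of 11739 genes. At 72 h they were Fdps, Hsd17b7 and Insig1, 3 of 26 beside 5.76%. At 96 h they were Hsd17b7, Elovl6, Srebf2 and Insig1, 4 of 26 beside 8.16%. None was 2-fold higher on this scale at any time, where 5%, 6.61% and 7.39% of all genes were. Scd1, whose low level the pseudocount weighs down, was at 279%, 364% and 451% of its on level, and with a pseudocount of 0.1 FPKM 1 member was 2-fold higher at 72 h and at 96 h. The counts of lower genes at 48 h, 72 h and 96 h were 4, 6 and 5 with a pseudocount of 0.1 FPKM. They were 0, 2 and 1 with the median change of genes expressed in both libraries set to 0; that median was -0.15, -0.09 and -0.07. With a pseudocount of 5 FPKM they were 0, 1 and 0, but genes under 5 FPKM in the on library, Hsd17b7 and Elovl6 among them, cannot reach a 2-fold fall on that scale. Hsd17b7 itself was at 35.8%, 33.0% and 33.6% of its on level.

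Between 48 h and 96 h the genes did not move one way. The median log2 difference, 96 h minus 48 h, was 0.016 for the 26 genes tested and 0.079 for all genes, and 12 of the 26 were lower at 96 h. Sc4mol (-0.45), Mvd (-0.42), Srebf2 (-0.32), Cyp51 (-0.32) and Mvk (-0.30) were lower at 96 h than at 48 h, and Scd1 (0.38), Fdps (0.28), Srebf1 (0.25) and Tm7sf2 (0.24) were higher. Over the same interval the leukocyte genes had a median difference of -0.65, with 12 of 12 lower at 96 h, and the erythroid genes one of 0.67.

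**Figure D3:**
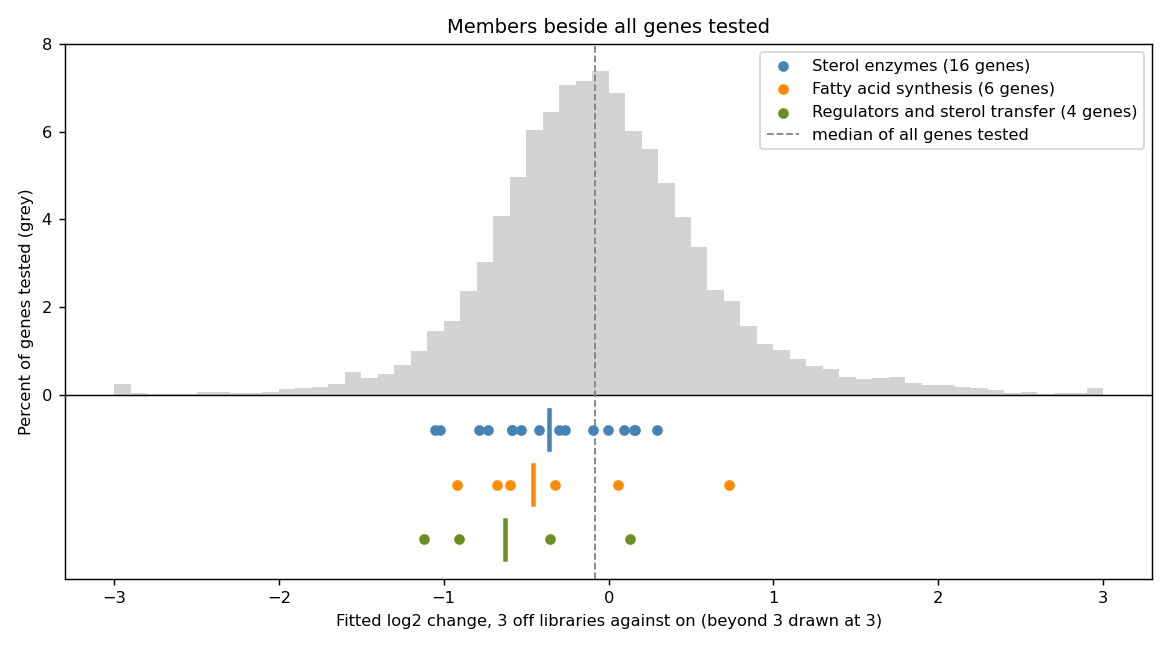
Fitted log2 change of the off libraries against the on library (horizontal), as a histogram of the percent of 11958 genes tested (vertical, grey) with the members drawn below it by role; thick ticks mark each role's median and the dashed line that of all genes. The medians of the roles lie at -0.36, -0.46 and -0.63, left of the dashed line at -0.08, and single members spread on both sides of it.

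Other genes of lipid metabolism were set beside these. Of 6 other sterol and isoprenoid genes, 2 fell, beside 15.2% of all genes tested, and 0 rose (0 higher also at an unadjusted limma p under 0.05). Tmem97, a sterol-responsive membrane protein, went from 30.5 FPKM to 12.1, 14.1 and 13.7 FPKM (-1.14 ± 0.11). Nus1, a subunit of the enzyme that makes dolichol precursors, went from 18.7 FPKM to 11.0, 11.3 and 11.7 FPKM (-0.68 ± 0.04; limma, Benjamini-Hochberg adjusted p = 0.0247; 0.119 without the 72 h library). Ebp, a sterol isomerase, had a mean change of -0.37 ± 0.11 and Ggps1, which extends farnesyl diphosphate, one of 0.19 ± 0.10, and neither passed.

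Among 5 genes of the SREBP release machinery, 1 fell and 1 rose, or 20% each, beside 15.2% and 11.8% of all genes tested. Mbtps2, a membrane protease that frees SREBPs, fell from 4.73 FPKM to 2.31, 3.27 and 2.58 FPKM (limma, Benjamini-Hochberg adjusted p = 0.0469; 0.0568 without the 48 h library and 0.0558 without 96 h, and from 0.0111 to 0.0907 over 9 other settings). Rnf139, a ubiquitin ligase of the endoplasmic reticulum, rose from 10.2 FPKM to 14.1, 19.1 and 21.8 FPKM (adjusted p = 0.0496; 0.0881 without the 72 h library and 0.0504 without 96 h). Scap, the escort of SREBPs, was lower in every off library, at 17.1 FPKM on and 11.6 to 12.2 FPKM off, and did not pass (adjusted p = 0.0718). Insig2, which like Insig1 holds SREBPs back, was at 4.51 FPKM on and 4.98 to 5.81 FPKM off (adjusted p = 0.442).

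Of 14 tested genes of other lipid synthesis, 1 fell and 1 rose, or 7.14% each, beside 15.2% and 11.8% of all genes tested. Acss2, which makes acetyl-CoA from acetate and is an SREBP target, was at 3.96 FPKM on and at 8.00, 9.59 and 11.5 FPKM off. It was higher in every off library, against the direction of Acly, and rose by 1.10 ± 0.24 (limma, Benjamini-Hochberg adjusted p = 0.0102). Elovl5, which lengthens polyunsaturated fatty acids, fell from 37.1 FPKM to 21.0, 19.1 and 15.6 FPKM (adjusted p = 0.0134). Fads2, a desaturase of polyunsaturated fatty acids, was at 10.3 FPKM on and 14.9, 16.9 and 24.0 FPKM off and did not pass (adjusted p = 0.0595; 0.0155 without the 48 h library, 0.0412 without 96 h and 0.0516 without 72 h). Mcat, of mitochondrial fatty acid synthesis, did not pass either (-0.45 ± 0.42, adjusted p = 0.284).

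Among 11 tested genes of sterol export, storage and the sterol sensor LXR, 2 rose (18.2%) and 1 fell (9.09%). Over all genes tested, these shares were 11.8% and 15.2%. Abcg1, a cholesterol exporter that LXR activates, was at 3.54 FPKM on and at 11.6, 9.19 and 7.63 FPKM off. It was highest at 48 h and rose by 1.19 ± 0.28 (limma, Benjamini-Hochberg adjusted p = 0.00916). Mylip, a ubiquitin ligase that LXR activates, rose from 6.75 FPKM to 14.2, 15.5 and 14.3 FPKM (adjusted p = 0.00607). Npc2, which passes cholesterol out of lysosomes, fell from 99.4 FPKM to 71.9, 51.9 and 45.8 FPKM (adjusted p = 0.0496; 0.109 without the 72 h library and 0.0513 without 96 h). Its partner Npc1 was at 9.96 FPKM on and 5.04 to 7.21 FPKM off and did not pass (adjusted p = 0.0643).

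Fatty acid oxidation, the opposing route, had 3 falls and 1 rise among 10 genes tested. Cpt1a, which lets fatty acids into mitochondria, fell from 41.8 FPKM to 15.6, 24.4 and 19.9 FPKM (-1.05 ± 0.31; limma, Benjamini-Hochberg adjusted p = 0.0182). Acadl, a dehydrogenase of long chains, fell from 77.4 FPKM to 35.2, 43.4 and 45.1 FPKM (adjusted p = 0.0180). Pdk4, which restrains the entry of pyruvate, fell from 2.59 FPKM to 0.530, 0.801 and 0.445 FPKM (adjusted p = 0.00397). Ehhadh, a peroxisomal enzyme, rose from 0.774 FPKM to 1.41, 1.74 and 1.62 FPKM (adjusted p = 0.0458; 0.121 without the 72 h library and 0.0606 without 96 h), and passed the filter only through off libraries. Falls were thus counted in 38.5% of the synthesis genes tested and 30.0% of the oxidation genes tested, beside 15.2% of all genes, and the difference between the lists was not tested.

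**Figure D4:**
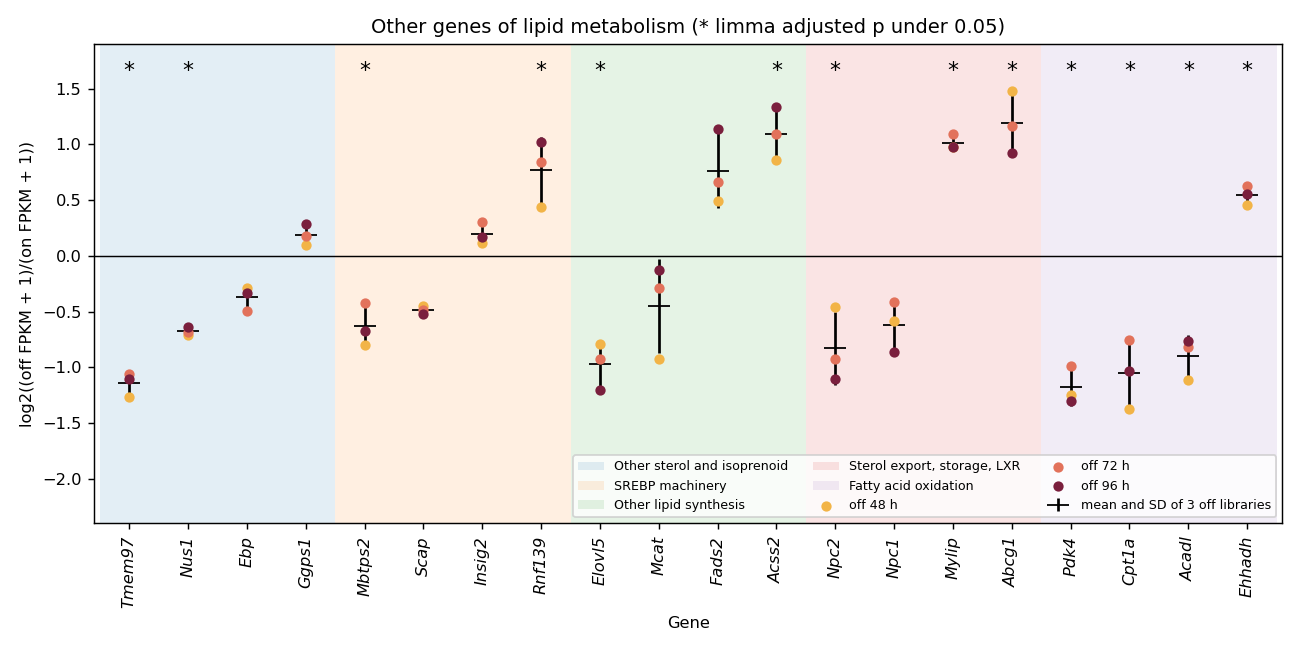
Change on the log2(FPKM + 1) scale (vertical) of up to 4 genes from each of 5 other lists of lipid metabolism (horizontal, shaded by list) at 48 h, 72 h and 96 h, with the mean and SD of the 3 off libraries in black and stars where the limma test passed. Tmem97 and Nus1 lie below 0 at all 3 times, while Acss2, Abcg1 and Mylip lie above 0 at all 3 times.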

How the data were processed

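Per the submitters' processing notes, reads were aligned with TopHat2 2.0.4 and quantified with Cuffdiff on genome build mm9, with the annotation, strand setting and Cuffdiff version not given in the sources used here. Values deposited by the authors are FPKM in 4 tables, each pairing the on library (headed 0 hours) with 1 off library or a combined off value. The on columns differ by 1 factor per table (at least 99.9% of values above 0 agreed within 0.1% in the tables of 1 time, 99.5% in the combined one), and this factor gave the common scale. Changes used a pseudocount of 1 FPKM and genes reaching 1 FPKM. limma 3.58.1 (statmod 1.5.0, R 4.3.3) compared 3 off libraries with 1 on library on log2(FPKM + 1), with trend and robust settings and 2 residual degrees of freedom. It treats differences between times as spread and takes the on library, which is alone, to vary as the others do. The code was also run on simulated data with less spread than the off libraries and planted changes larger than those of the members. That run cannot vouch for the calls reported here or for the assumption on the on library. Members and lists were chosen with earlier results of these data known. All 153 list entries matched, 1 through a synonym; some genes of lipid metabolism are not reported here. All members are named, and from each other list of lipid metabolism the 4 largest mean changes among genes reaching 1 FPKM. Promoter sequences are RefSeq's (GRCm38.p6), not the authors' build; the members other than Hmgcs1 whose promoters are printed were chosen by size of change.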

Additional observations from a re-analysis of the deposited data

Results flagged for a closer look

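For 5 of the genes the values lay in opposite directions at different times, and these differences were not tested, since each time is 1 library and all share the on library. The gap is the highest minus the lowest log2 change over the 3 times. The gap was 0.34 for Pmvk, with changes of 0.14, -0.01 and 0.33 at 48 h, 72 h and 96 h. It was 0.26 for Idi1 (-0.11, -0.22 and 0.04), 0.23 for Sqle (0.19, -0.05 and 0.15), 0.19 for Nsdhl (-0.12, 0.04 and 0.07) and 0.24 for Scd2 (0.15, -0.09 and 0.11). All 5 stayed within 0.33 of 0 at every time, and none passed the limma test (Benjamini-Hochberg adjusted p from 0.598 for Pmvk to 0.997 for Nsdhl).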

How the results depend on the processing

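Of 11 members called by limma, 4 (Fdps, Hsd17b7, Elovl6 and Insig1) were called under all 9 alternatives. The count of members called lower, 10, became 5 with no filter (with 0 higher), 6 with the libraries' medians set equal, and 4 to 12 when 1 off library was left out, 4 being without 72 h. It was 8 without the trend and robust settings (30.8% of those tested, beside 13.3% of all genes). It was 11 with a pseudocount of 5 FPKM (42.3% beside 15.9%) and 12 without the 48 h library (46.2% beside 19.2%). With time as a covariate it was 13, or 50% of the 26 tested beside 29.8% of all genes. Lower calls over all genes, 1817 (15.2%), became 1339 (7.65%) with no filter, 1413 (11.8%, with 1595 higher, so that higher calls outnumbered lower ones) with medians equal and 1215 (10.2%) without 72 h; time as a covariate called 6024 genes, 2458 higher and 3566 lower. Genes at least 2-fold changed at 48 h numbered 1156, and 1830 or 531 with a pseudocount of 0.1 or 5 FPKM; at 72 h 1452, and 2185 or 686; at 96 h 1824, and 916 with 5 FPKM. Centring on the median change moved the split at 48 h from 587 higher and 569 lower to 811 and 395, at 72 h from 776 and 676 to 906 and 539, and at 96 h, where the majority turned, from 867 and 957 to 988 and 805. Members at least 2-fold lower numbered 0 at 48 h, 1 at 72 h and 0 at 96 h with 5 FPKM, 0 at 48 h and 1 at 96 h with the median set to 0, and 6 at 72 h with 0.1 FPKM, where 1 (72 h) and 1 (96 h) were higher. The medians with 5 FPKM were -0.22 (sterol), -0.33 (fatty acid) and -0.27 (all members), and the fatty acid median was -0.36 with the median set to 0. The 96 h minus 48 h median of 0.016 became -0.069 with the median set to 0. The causes were not tested beyond what each setting does. No paired analysis was possible because each group holds 1 library. Depth is unknown, so no counting error can be given.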
